A study of Mus musculus with 9 samples.

Results

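The 10 genes of the mTOR and AMPK nutrient-sensing pathways, Mtor, Rptor, Rictor, Deptor, Tsc1, Tsc2, Rheb, Prkaa1, Prkaa2 and Stk11, were followed by gene symbol among the 27179 genes counted in tissue punches of the paraventricular nucleus (PVN) of the mouse hypothalamus. All 10 members passed the filter on low counts, so that each of the 10 was tested. The study asked how a high-fat diet and the tetracycline antibiotic minocycline, used as an inhibitor of microglia, act on metabolism and on the hypothalamus. Bulk RNA sequencing was done on 3 male wild type C57BL/6 mice (C57BL/6J by the study's methods) in each of 3 groups. Control mice ate a diet with 16% of calories from fat, HFD mice a diet with 60% of calories from fat for 12 weeks, and HFD+Mino mice the same 60% diet with minocycline at 40 mg/kg/day in the drinking water for the last 6 weeks. The diets began at 5 weeks of age, and the labels give postnatal day 35 for every sample. Controls had no drug, and no group received minocycline on the control diet.

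The kinase MTOR works in a pair of complexes, mTORC1 with the scaffold RPTOR and mTORC2 with RICTOR, and drives protein synthesis and growth while holding back autophagy when amino acids and insulin are plentiful. The GTPase RHEB switches mTORC1 on at the lysosome, and the TSC1-TSC2 complex switches RHEB off. AMPK, switched on by the kinase LKB1 when cellular energy falls, acts against mTORC1, and in the hypothalamus both pathways are known for linking nutrient state to feeding.

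The upstream sequences of 3 members are shown because these members carry the comparisons below: Mtor and Prkaa1 passed the test between HFD+Mino and HFD, and Rheb was the member with the highest level in every group. RefSeq (GRCm38.p6) held a promoter for 9 of the 10 members, and Deptor had none in the table used. The sequences are the 250 bases before the start used in that table, which for these 3 is the first base of the gene span given below, and the capitals mark the letters named after each gene.
Mtor, chr4:148448332-148448581, plus strand, CCAAT or its complement ATTGG: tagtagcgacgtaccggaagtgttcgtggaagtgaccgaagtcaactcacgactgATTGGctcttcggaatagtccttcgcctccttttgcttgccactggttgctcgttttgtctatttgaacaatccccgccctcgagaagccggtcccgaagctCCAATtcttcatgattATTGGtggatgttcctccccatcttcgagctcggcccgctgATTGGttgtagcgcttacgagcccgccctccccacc
Rheb, chr5:24842362-24842611, minus strand, CACGTG: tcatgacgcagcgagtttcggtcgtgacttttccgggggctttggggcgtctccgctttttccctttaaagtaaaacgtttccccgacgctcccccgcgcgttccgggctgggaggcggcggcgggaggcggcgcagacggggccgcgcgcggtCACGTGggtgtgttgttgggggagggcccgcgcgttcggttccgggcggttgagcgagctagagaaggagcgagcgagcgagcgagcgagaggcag
Prkaa1, chr15:5143611-5143860, plus strand, GGGCGG or its complement CCGCCC: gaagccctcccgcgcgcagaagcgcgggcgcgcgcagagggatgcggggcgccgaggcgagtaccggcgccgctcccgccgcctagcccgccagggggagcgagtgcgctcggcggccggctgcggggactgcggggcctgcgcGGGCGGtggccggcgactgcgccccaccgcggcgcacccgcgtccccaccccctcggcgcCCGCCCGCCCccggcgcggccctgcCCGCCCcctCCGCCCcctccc

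The windows of 4 other members reached into their gene spans, by 28 bases for Stk11, 32 for Rictor, 49 for Tsc2 and 240 for Tsc1, so these do not lie wholly upstream. Across the 9 members, on both strands, CACGTG was present in Rheb and in 6.02% of all 32851 promoters of this length, and CCGGAAG in Mtor and Tsc2 and in 6.91% of all. CCAAT was present in Mtor (4 matches), Stk11 (3) and Rictor (1), against 33.8% of all promoters, and GGGCGG in 5 of the 9 members against 32.7%. TGACG was present in Rptor, Tsc1, Rheb, Prkaa2 and Stk11 against 17.8% of all, and TGACGTCA, which contains it, TGTTTAC and TATAAA were in none of the 9, against 1.55%, 3.17% and 12.4%. The motifs and the marked one for each gene were chosen after a first look at these sequences. GC content ran from 37.6% in Rptor to 85.2% in Prkaa1, with a median of 52.4% over all promoters.

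The libraries differed in their tissue markers. Total counts lay between 17728590 and 42326213 per sample. PVN neuron markers (Avp, Oxt, Crh, Trh and Sim1), the check on the labelled tissue, summed to between 27.8 and 2560 CPM (counts scaled by library size) in Control, to between 2478 and 3725 in HFD, but to 3103 to 37725 in HFD+Mino, so that Control sample 1, at 27.8, had nearly none and HFD+Mino samples 1 and 2 stood far above the rest. Markers of neighbouring nuclei (Pmch, Hcrt, Agrp, Pomc and Vip) summed to 27.8 to 3380 CPM in Control and to at most 76.3 in the other groups, and oligodendrocyte markers to 27545 CPM in Control sample 1 against at most 6225 in any other library. Microglia markers (Aif1, Cx3cr1, P2ry12, Csf1r and Tmem119) summed to 199 to 216 CPM in HFD, above Control at 137 to 170 and HFD+Mino at 130 to 183, with 0 of the 5 called. Cx3cr1, Csf1r and Tmem119 carried this, while P2ry12 had means of 35.7, 36.1 and 35.0 CPM in the order Control, HFD and HFD+Mino, and Aif1 had 9.45, 6.75 and 17.4. Ependymal markers (Foxj1, Ccdc153 and Tmem212) summed to 4.02 to 89.1 CPM in Control, to 99.4 to 179 in HFD, but to 202 to 417 in HFD+Mino, with 0 of the 3 called. Markers of oligodendrocyte precursors (Pdgfra, Cspg4 and Olig1) summed to 172 to 320 CPM in Control and 231 to 301 in HFD, and to 93.1 to 172 in HFD+Mino. Of these 3, 1, Cspg4, was called HFD-higher (means 6.89, 21.1 and 6.44 CPM, FDR 0.00323 in the 3-way test described below). Over all tested genes that test called 0.917% HFD-higher and 1.21% HFD-lower. The ribosomal precursor Rn45s took 0.350% to 0.430% of counts in HFD and 0.0266% to 0.113% elsewhere. The part of these differences in the results below was not tested, and in bulk tissue fewer cells of a type and less RNA per cell cannot be told apart.

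Within each group the order of the members was compared as CPM per kilobase of exon, since longer genes collect more reads. Rheb was the highest member in every group, with 37.2 ± 9.98 (SD, n = 3) in Control, 29.7 ± 1.96 in HFD, then 56.3 ± 20.3 in HFD+Mino, and its samples lay above those of every other member. Prkaa1, the α1 catalytic subunit of AMPK, came next with 9.31 ± 0.400, 15.4 ± 2.67 and 5.21 ± 1.75 CPM per kilobase. In Control the neighbours from Tsc2 (4.94) down to Prkaa2 (2.10) each overlapped with the next member in their samples. In HFD Tsc2 (10.1) and Mtor (8.93) overlapped with each other and lay above Rptor (4.93), and Rptor and the members below it overlapped with their neighbours. In HFD+Mino all neighbours below Rheb overlapped, with Rptor lowest at 1.85.

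**Figure D1:**
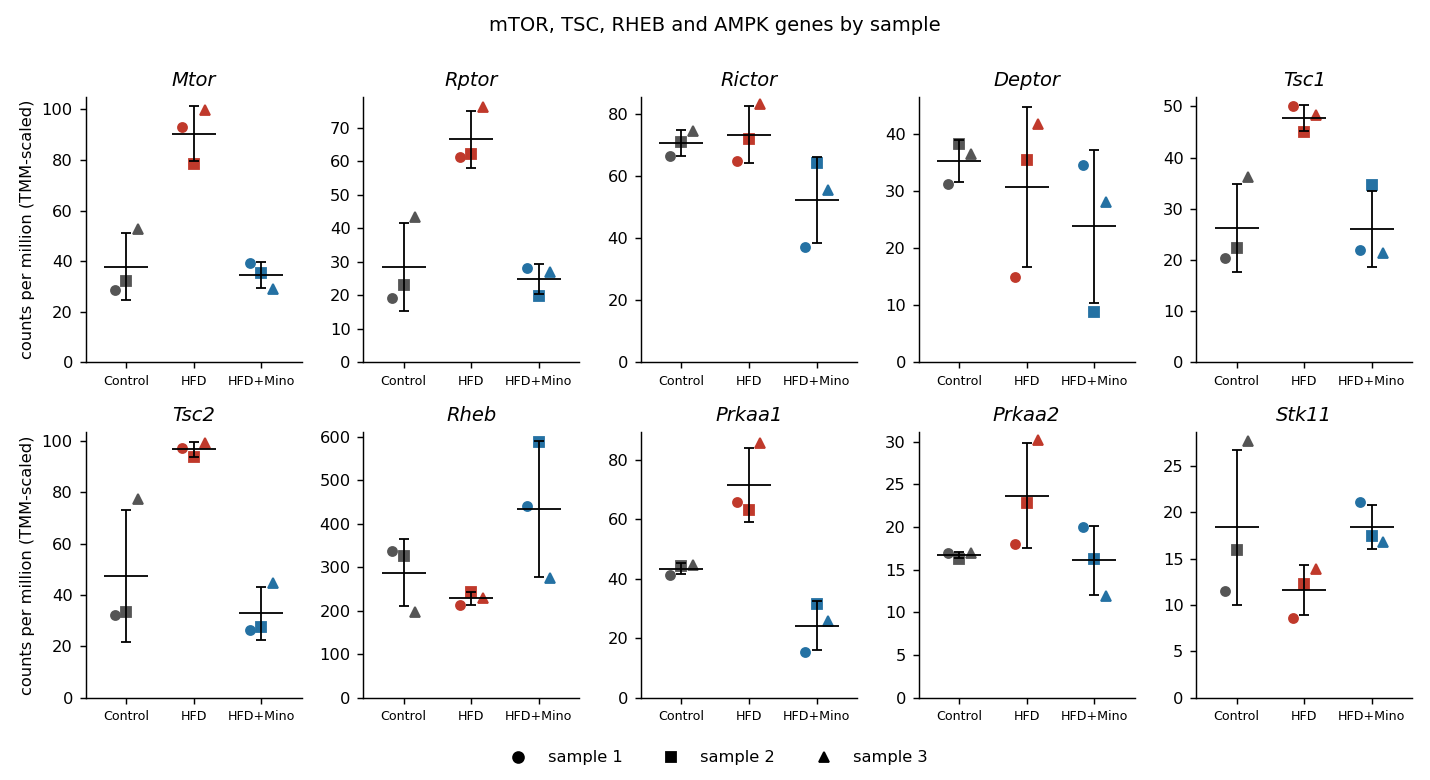
Level of each of the 10 genes in TMM-scaled CPM (y axis, from 0) in the 3 samples of Control, HFD and HFD+Mino, with symbols for the sample number, a bar at the mean and whiskers of 1 SD. All 3 HFD samples lie above the other 6 for Mtor, Rptor, Tsc1, Tsc2 and Prkaa1.

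The 3-way test asked for any difference among the groups, and HFD-higher or HFD-lower is used for genes with a false discovery rate (FDR) under 0.01 whose HFD mean was the highest or lowest and 1.5-fold or more away from the average of the log2 values of the groups. That difference is given below as the log2 distance of HFD. By edgeR 0 of 10 members were called, against 0.917% of tested genes HFD-higher and 1.21% HFD-lower. At an unadjusted p under 0.05 there were 6 members, but the share of all genes at that p was not counted. Such p-values were common: the neuron marker Stmn2, at an edgeR 3-way p of 0.0499, had an FDR of 0.128. DESeq2 called 4 members HFD-higher against 6.54% of genes, and 0 HFD-lower against 7.1%. With an FDR threshold of 0.05 in edgeR, 4 of 10 members were HFD-higher (Mtor, Rptor, Tsc2 and Prkaa1) against 6.37% of genes, and 0 were HFD-lower against 6.65%. In 5 of 10 members the 3 HFD samples lay above the 6 others, against 13.4% of tested genes, and in 0 they lay below, against 9.62%. Deviations of same-numbered Control and HFD+Mino samples correlated weakly (r = 0.135, 0.163 and 0.292). That number was then used as a block in these groups only. This pairing was taken from the same counts, so calls made with the block are not separate support. With the block 4 members were HFD-higher at FDR under 0.01 (Mtor, Rptor, Tsc2 and Prkaa1) against 7.76% of genes, and 0 HFD-lower against 5.4%.

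Mtor (Entrez 56717, chr4:148448582-148557685, plus strand, GRCm38), the kinase of both complexes, had 28.5, 32.1 and 52.8 CPM in Control samples 1 to 3, 92.9, 78.3 and 99.6 in HFD and 39.2, 35.1 and 29.0 in HFD+Mino. The lowest HFD sample stood above the highest of the others, and Control and HFD+Mino overlapped. The 3-way FDR was 0.0114 and the log2 distance of HFD was 0.88 ± 0.14 (SE). Mtor fell in HFD+Mino against HFD, with a log2 fold change of -1.39 ± 0.26 (SE) and an adjusted p of 0.00856 by edgeR's quasi-likelihood test. Against Control, HFD had a log2 fold change of 1.26 ± 0.26 with an FDR of 0.0190, which missed the threshold of 0.01.

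Rptor (Entrez 74370, chr11:119602905-119899591, plus strand), the scaffold that brings substrates to mTORC1, had 19.1, 23.0 and 43.5 CPM in the Control samples, 61.1, 62.0 and 76.2 in the HFD samples and 28.0, 19.8 and 26.9 in the HFD+Mino samples. Its HFD samples again lay above all others, and Control sample 3 was the nearest of them, as it was for Mtor. The log2 distance of HFD was 0.88 ± 0.17 with a 3-way FDR of 0.0185. Rptor had log2 fold changes of 1.22 ± 0.31 in HFD against Control (FDR 0.0422) and -1.42 ± 0.31 in HFD+Mino against HFD (FDR 0.0123).

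Rictor (Entrez 78757, chr15:6708349-6800401, plus strand), which defines mTORC2, did not share this pattern. It had 66.4, 70.9 and 74.6 CPM in the Control samples, 64.8, 71.9 and 83.2 in the HFD samples and 37.1, 64.2 and 55.5 in the HFD+Mino samples. Control and HFD overlapped, and every HFD+Mino sample lay below every sample of the other groups. The log2 fold change of HFD against Control was 0.05, with a 95% confidence interval from -0.46 to 0.56, and that of HFD+Mino against HFD was -0.49, with an interval from -0.999 to 0.024 (FDR 0.137).

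Deptor (Entrez 97998, chr15:55112317-55259273, plus strand), an inhibitor bound to both complexes, had 31.2, 38.3 and 36.5 CPM in the Control samples, 15.0, 35.4 and 41.8 in the HFD samples and 34.6, 8.84 and 28.1 in the HFD+Mino samples. HFD sample 1 and HFD+Mino sample 2 were low, and all 3 groups overlapped. Its 3-way FDR of 0.610 was the highest of the 10 members.

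Tsc2 (Entrez 22084, chr17:24595816-24632676, minus strand), the subunit that inactivates RHEB, had 32.1, 33.3 and 77.3 CPM in the Control samples, 97.1, 93.7 and 99.4 in the HFD samples and 26.2, 27.5 and 44.8 in the HFD+Mino samples. The HFD samples were close together and above all others, while Control sample 3 stood apart from the other Control samples. The log2 distance of HFD was 0.86 ± 0.19 (3-way FDR 0.0258), and the log2 fold change was 1.02 ± 0.35 in HFD against Control (FDR 0.120) and -1.56 ± 0.35 in HFD+Mino against HFD (FDR 0.0133). Tsc2 shares 693 exonic bases with Pkd1 on the opposite strand, and without counting by strand reads there cannot be told apart. Pkd1 itself had 48.2 ± 5.58 CPM in HFD, 47.3 ± 27.0 in Control and 19.5 ± 17.7 in HFD+Mino.

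Tsc1 (Entrez 64930, chr2:28640993-28691172, plus strand), the partner that stabilizes TSC2, had 20.5, 22.3 and 36.2 CPM in the Control samples, 49.99, 45.0 and 48.2 in the HFD samples and 22.0, 34.7 and 21.4 in the HFD+Mino samples. Every HFD sample was above the rest, and Control sample 3 and HFD+Mino sample 2 were the nearest. The log2 distance of HFD was 0.58 ± 0.16 (3-way FDR 0.0537), and the log2 fold change was 0.86 in HFD against Control (FDR 0.106) and -0.87 in HFD+Mino against HFD (FDR 0.0399).

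Rheb (Entrez 19744, chr5:24802823-24842361, minus strand), the GTPase that these subunits restrain, had 337, 325 and 198 CPM in the Control samples, 213, 244 and 230 in the HFD samples and 441, 588 and 275 in the HFD+Mino samples. Its HFD samples were low and close together and lay below every HFD+Mino sample, and Control sample 3 was below them. The log2 distance of HFD was -0.42 ± 0.17 (3-way FDR 0.0851), and the log2 fold change of HFD+Mino against HFD was 0.92 ± 0.30 (FDR 0.0401).

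Prkaa1 (Entrez 105787, chr15:5143861-5181899, plus strand) had 41.2, 44.3 and 44.5 CPM in the Control samples, 65.8, 63.0 and 85.8 in the HFD samples and 15.4, 31.4 and 26.0 in the HFD+Mino samples. It separated all 3 groups, with HFD highest and HFD+Mino below Control in every sample. The log2 distance of HFD was 0.76 ± 0.15 (3-way FDR 0.0136). Prkaa1 fell in HFD+Mino against HFD, with a log2 fold change of -1.56 ± 0.27 and an adjusted p of 0.00645 by edgeR's quasi-likelihood test. In HFD against Control it had 0.72 ± 0.27 (FDR 0.151), and in HFD+Mino against Control -0.84 ± 0.27 (FDR 0.142).

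Prkaa2 (Entrez 108079, chr4:105029649-105109898, minus strand), the α2 catalytic subunit of AMPK, had 16.9, 16.3 and 16.9 CPM in the Control samples, 18.02, 22.9 and 30.2 in the HFD samples and 20.1, 16.3 and 11.9 in the HFD+Mino samples. HFD lay above Control in all samples and overlapped with HFD+Mino. Its log2 fold changes were 0.51 in HFD against Control, with a 95% confidence interval from -0.09 to 1.10, and -0.56 in HFD+Mino against HFD, from -1.15 to 0.04.

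Stk11 (Entrez 20869, chr10:80115767-80130679, plus strand), which encodes LKB1, had 11.5, 15.9 and 27.7 CPM in the Control samples, 8.63, 12.3 and 13.9 in the HFD samples and 21.1, 17.4 and 16.7 in the HFD+Mino samples. HFD lay below HFD+Mino in all samples and overlapped with Control. Its log2 fold changes were -0.66 in HFD against Control (FDR 0.293) and 0.66 in HFD+Mino against HFD (FDR 0.156). Stk11 shares 232 exonic bases with Cbarp on the opposite strand, Deptor 303 with Gm9920 and Rptor 84 with Rptoros.

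In pairs of groups, a call needed an FDR under 0.01 and a 1.5-fold change. In HFD against Control edgeR called 0 of 10 members, against 0.317% of tested genes higher and 1.42% lower. There 5 members had an unadjusted p under 0.05, all higher, but the share of all genes at that p was not counted. Such p-values were common here too: the astrocyte marker Slc1a3, at an edgeR p of 0.0409, had an FDR of 0.220. DESeq2 called 2 higher against 3.26%, and 0 lower against 3.65%. At FDR under 0.05, 2 members were higher (Mtor and Rptor) against 2.57%, and 0 lower against 3.21%. With the replicate block 3 were higher (Mtor, Rptor and Tsc2) against 3.35%, and 0 lower against 2.87%. In HFD+Mino against HFD 2 members were lower (Mtor and Prkaa1) against 2.16% of genes, and 0 were higher against 1.98%. DESeq2 called 4 lower against 10.4%, and 0 higher against 12.6%. At FDR under 0.05, 5 were lower and 1, Rheb, was higher, against 12.9% and 14.6%. With the block 4 were lower, again with 1 higher, against 12.7% and 12.9%. In HFD+Mino against Control 0 members and 0% of all genes were called by edgeR, and DESeq2 called 0 members against 1.2% of genes higher and 0.392% lower, although 21.3% of genes and 1 member, Prkaa1, had an unadjusted p under 0.05. With the block 2.68% of genes were higher there and 0.496% lower, and none of these were members.

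**Figure D2:**
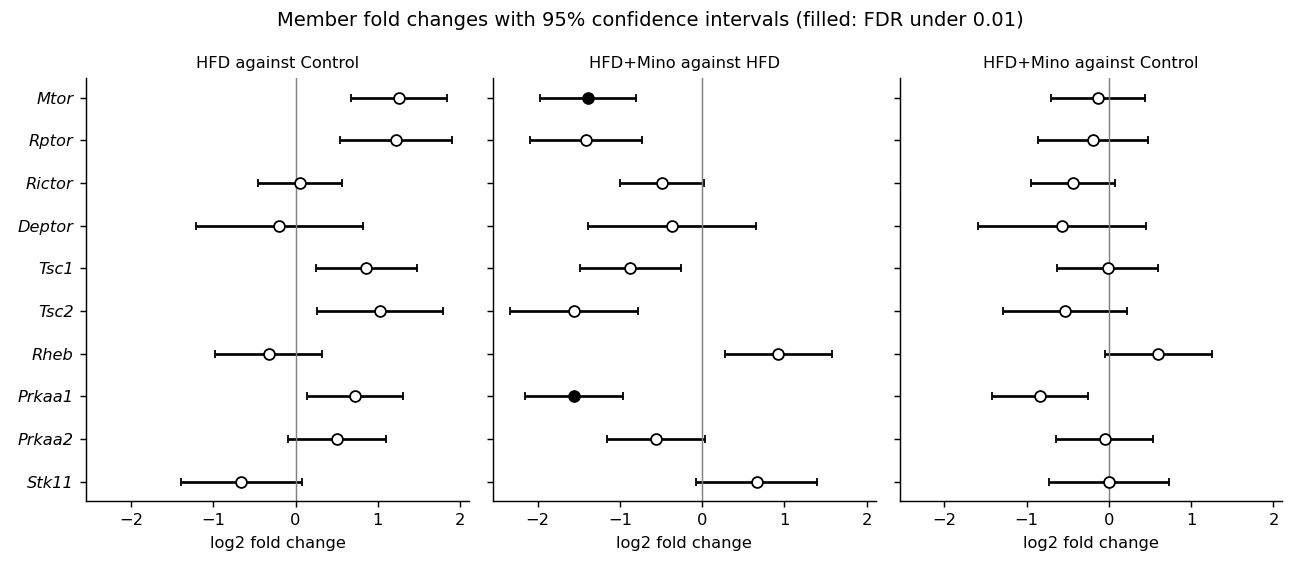
Log2 fold change (x axis) of the 10 genes in the 3 comparisons of groups, with bars for the 95% confidence interval and filled points where the FDR was under 0.01 and the change at least 1.5-fold. Filled points are Mtor at -1.39 and Prkaa1 at -1.56, both in HFD+Mino against HFD.

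The calls of Mtor and Prkaa1 in HFD+Mino against HFD depended on single libraries. Mtor lost its call without Control sample 2, with any HFD sample left out, and without HFD+Mino sample 1 or 2, with log2 fold changes from -1.49 to -1.28 over all 9 samples left out in turn and an FDR of up to 0.0501. Prkaa1 lost its call in the same cases except without HFD+Mino sample 2, with values from -1.79 to -1.32 and an FDR of up to 0.0433. Without HFD+Mino samples 1 and 2 together, the libraries highest in PVN markers, Mtor had -1.63 (FDR 0.0644) and Prkaa1 -1.45 (FDR 0.0312). Conversely, without HFD+Mino sample 3 there were 4 HFD-higher members in the 3-way test against 6.21% of genes, and 0 HFD-lower against 7.23%. Without Control sample 3 there were 3 HFD-higher against 1.67%, and 0 HFD-lower against 1.04%.

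Exon length moved with the groups. Genes called HFD-higher had a median exon length of 7921 bases and HFD-lower genes 3730.5, against 4314 in genes not called, and the members ran from Stk11 (4580) and Prkaa1 (4655) through Rheb (7721) to Rptor (13471) and Rictor (16930). With the length trend over all genes removed from each sample, the log2 distance of HFD dropped to 0.56 for Mtor, 0.52 for Rptor, 0.57 for Tsc2 and 0.24 for Tsc1, and Prkaa1 kept 0.65. Rictor went from 0.18 to -0.21 and Deptor from 0.06 to -0.25, and Rheb went to -0.69. No member was then called in any of the comparisons, and in HFD+Mino against HFD the log2 fold change was -0.80 for Mtor (FDR 0.0320) and -1.28 for Prkaa1 (FDR 0.0123).

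**Figure D3:**
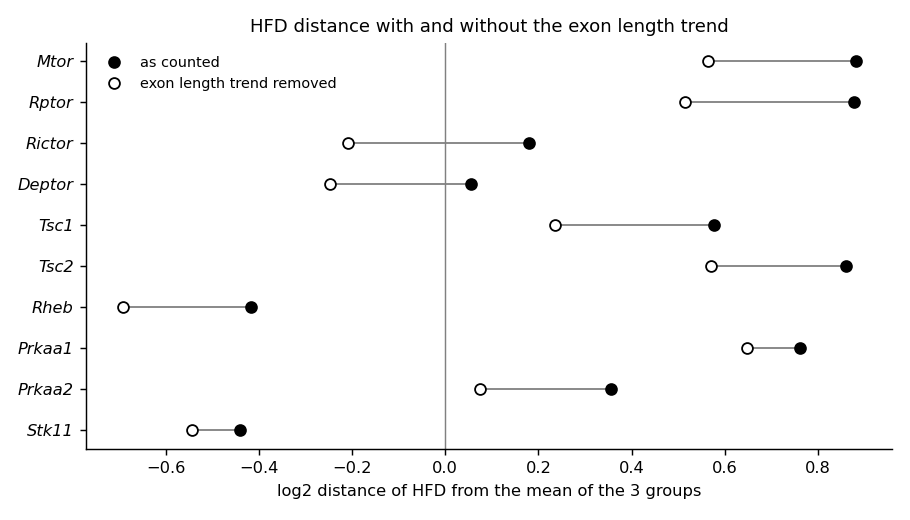
Log2 distance of HFD (x axis) for each of the 10 genes, from the counts (filled) and after the trend with exon length over all genes was removed (open). Every open point lies to the left of its filled point, and Rictor and Deptor cross 0.

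Ratios within a sample compare partners that share the library. The Rictor to Rptor ratio of CPM, which sets mTORC2's defining subunit against that of mTORC1, was 3.48, 3.08 and 1.71 in the Control samples, 1.06, 1.16 and 1.09 in the HFD samples and 1.32, 3.24 and 2.07 in the HFD+Mino samples. The HFD ratios lay below all others. The log2 difference of HFD from the mean of the other groups was -1.08. The 3 groups did not pass an exact permutation test (p = 0.0571, Benjamini-Hochberg adjusted 0.0857 over 3 ratios). The exact permutation p was 0.0429 without Control sample 3, and between 0.0679 and 0.129 without any other single sample.

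The Tsc1 to Tsc2 ratio was 0.638, 0.670 and 0.468 in the Control samples, 0.515, 0.480 and 0.485 in the HFD samples and 0.841, 1.26 and 0.477 in the HFD+Mino samples. The groups overlapped, with an exact permutation p of 0.189 for the difference among them. Sample 3 had the lowest ratio in both Control and HFD+Mino. The exact permutation p was 0.0143 without HFD+Mino sample 3, and between 0.218 and 0.543 without any other single sample.

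The Prkaa1 to Prkaa2 ratio, between the alternative catalytic subunits of AMPK, was 2.43, 2.72 and 2.63 in the Control samples, 3.65, 2.76 and 2.84 in the HFD samples and 0.766, 1.93 and 2.18 in the HFD+Mino samples. HFD was above all others by a narrow margin and HFD+Mino below all others. The exact permutation test over the 3 groups gave p = 0.00357 (adjusted 0.0107), the smallest that all arrangements of the samples can give, and the log2 difference of HFD from the mean of the other groups was 0.64. The p rose to between 0.05 and 0.0786 on leaving out any Control or HFD sample.

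**Figure D4:**
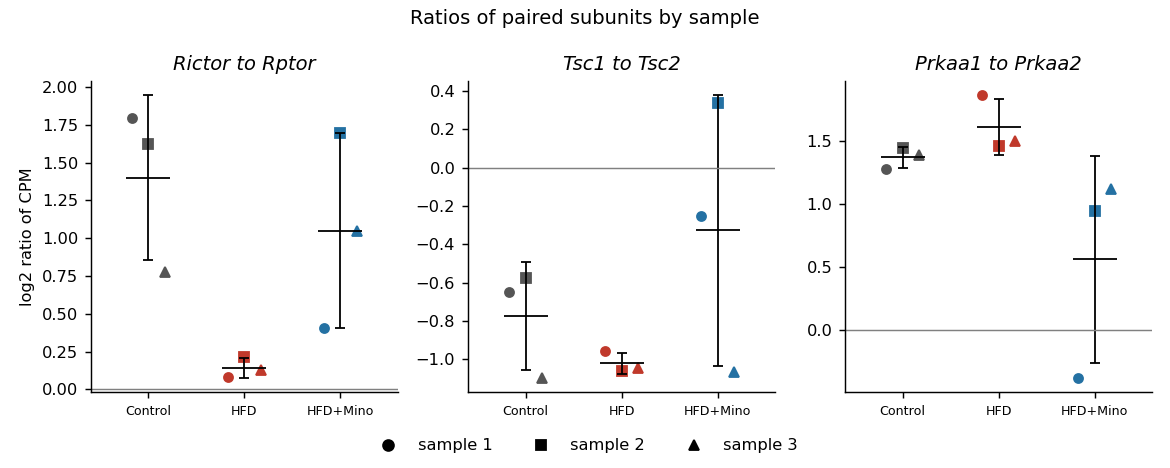
Log2 ratio of CPM (y axis) for Rictor to Rptor, Tsc1 to Tsc2 and Prkaa1 to Prkaa2 in each sample, with the mean and 1 SD per group. The HFD samples lie lowest for Rictor to Rptor (1.06 to 1.16 as ratios) and highest for Prkaa1 to Prkaa2 (2.76 to 3.65).

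Correlations of log2 CPM over the 9 samples describe how the members varied together, with groups and libraries included. Mtor and Rptor had r = 0.96 and Rptor and Tsc2 r = 0.94, while Tsc2 and Rheb had r = -0.88. Rictor was nearest to Prkaa1 among the members (r = 0.89), while the highest r of Deptor was 0.32, with Prkaa2, and that of Stk11 0.23, with Deptor. Over all tested genes outside the 10, the nearest over these 9 samples were Rab3gap2 for Mtor (0.987), Apc2 for Rptor (0.997), Stk10 for Rictor (0.981), Dpysl3 for Deptor (0.983), Lrig2 for Tsc1 (0.990), Kansl3 for Tsc2 (0.994), Trappc6b for Rheb (0.997), Gmfb for Prkaa1 (0.995), Plcxd2 for Prkaa2 (0.973) and Mprip for Stk11 (0.929).

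The wider pathway was described by 94 listed genes in 9 roles, of which 93 were tested. In the 3-way test 1 was HFD-higher, against 0.917% of all tested genes, and 3 were HFD-lower, against 1.21%, and the median log2 distance of HFD was -0.014, against 0.47 for the 10 members and -0.0032 for all tested genes. In HFD against Control 5 were lower (all genes 1.42%) and 0 higher (0.317%) by edgeR. There 13 were higher and 18 lower at an unadjusted p under 0.05, and the share of all genes at that p was not counted. In HFD+Mino against HFD 3 were higher (1.98%) and 4 lower (2.16%). In HFD+Mino against Control 0 were called by edgeR. There 20 of the 93 had an unadjusted p under 0.05, against 21.3% of all tested genes, and DESeq2 called 2 (1.59% of all genes). With the replicate block 11 were HFD-higher (7.76%) and 11 HFD-lower (5.4%), and in HFD against Control 4 were higher (3.35%) and 7 lower (2.87%). The block gave 17 higher (12.9%) and 17 lower (12.7%) in HFD+Mino against HFD, and 2 higher (2.68%) and 1 lower (0.496%) in HFD+Mino against Control. With any HFD sample left out, the 3-way test called 0 of these genes and 0.0168% to 0.0779% of all genes. It called 1 without Control sample 2 (0.375%) and 2 without HFD+Mino sample 1 (0.775%), while without HFD+Mino sample 3 it called 20 (13.4%).

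Among amino acid sensors, Castor2, a paralog of the arginine sensor CASTOR1, was the HFD-higher gene. It had 31.2, 38.9 and 82.3 CPM in the Control samples, 159, 162 and 184 in the HFD samples and 28.8, 29.5 and 42.5 in the HFD+Mino samples. Its HFD samples lay far above the rest, with a log2 distance of 1.35 (FDR 0.00490), and its log2 fold change in HFD+Mino against HFD was -2.32 (FDR 0.00388). Nprl2, a subunit of the GATOR1 inhibitor of the Rag GTPases, rose in HFD+Mino against HFD (log2 fold change 1.14, FDR 0.00954), from 70.6 to 74.5 CPM in HFD to 113 to 191. Rragd, a Rag GTPase that recruits mTORC1 to the lysosome, fell by 1.21 on the log2 scale (FDR 0.00954), from 83.5 to 97.6 CPM in HFD to 29.4 to 44.8.

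The HFD-lower genes belonged to the LKB1 arm. Cab39, the scaffold MO25 of the LKB1 complex, had 201, 190 and 223 CPM in the Control samples, 47.2, 57.6 and 57.2 in the HFD samples and 87.4, 120 and 155 in the HFD+Mino samples. All 3 groups were separate, and its log2 fold change in HFD against Control was -1.92 (FDR 0.00137). Mark3, a microtubule affinity-regulating kinase activated by LKB1, had 75.5, 66.9 and 83.5 CPM in the Control samples, 8.93, 11.1 and 9.91 in the HFD samples and 37.8, 35.8 and 71.8 in the HFD+Mino samples. Its log2 fold change was -2.91 in HFD against Control (FDR 0.000423) and 2.28 in HFD+Mino against HFD (FDR 0.00180). The salt-inducible kinase Sik3 fell in HFD against Control (log2 fold change -2.17, FDR 0.00424), from 71.0 to 94.0 CPM to 14.9 to 20.2. Mark1 and the AMPK-activating kinase Map3k7 also fell in HFD against Control, with log2 fold changes of -1.78 (FDR 0.00826) and -1.496 (FDR 0.00960).

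In contrast, Sik2 and Snrk, kinases of the same LKB1-activated family, fell in HFD+Mino against HFD with log2 fold changes of -2.22 (FDR 0.00998) and -1.77 (FDR 0.00954). Their HFD samples were the highest, at 11.1 to 15.3 and 142 to 185 CPM. Snrk lies beyond the 4 genes named per role and was named after its values were seen.

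Among the targets of mTORC1 and mTORC2, 1 of 18 passed: Eif4ebp1, the translation repressor 4E-BP1, rose in HFD+Mino against HFD (log2 fold change 2.08, FDR 0.00879), with 2.78 to 4.08 CPM in HFD, 4.12 to 5.41 in Control and 7.62 to 23.1 in HFD+Mino. None of the 10 AMPK targets, 8 further mTOR complex genes, 4 tested AMPK β and γ subunits or 4 genes grouped with TSC and RHEB was called. The smallest 3-way FDR in these roles was 0.0326 for Tbc1d4, a Rab GTPase-activating protein of glucose transport, 0.139 for Akt1s1, the mTORC1 inhibitor PRAS40, 0.101 for Prkag1 and 0.0258 for Tbc1d7, the third subunit of the TSC complex.

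**Figure D5:**
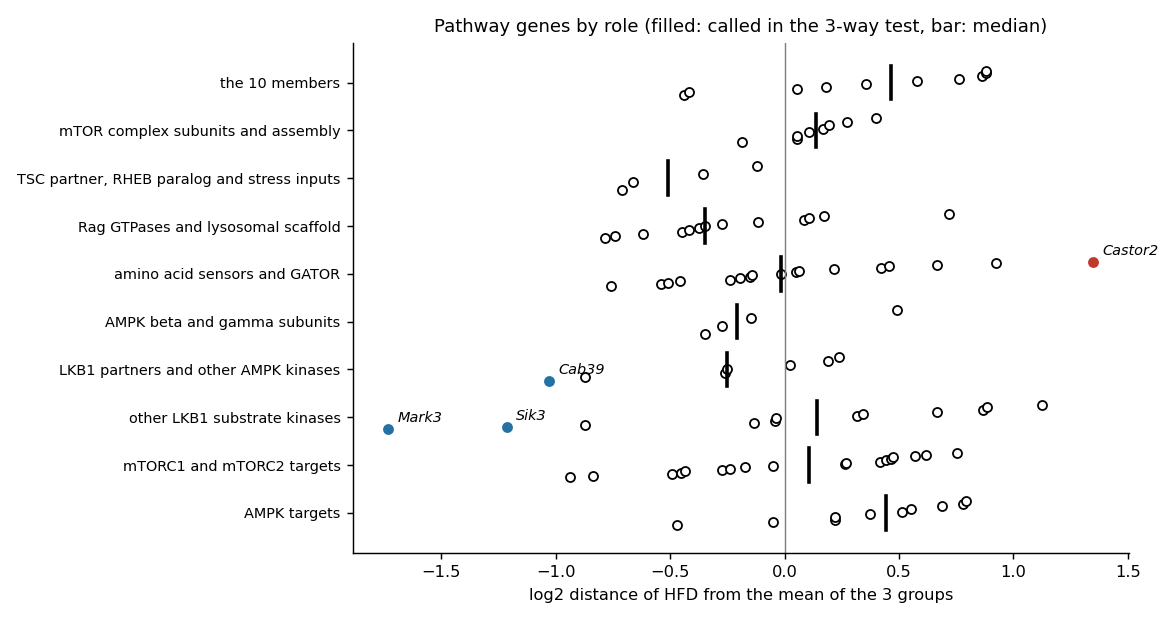
Log2 distance of HFD (x axis) for the 10 members and for 93 pathway genes by role, each point a gene, filled and named where called in the 3-way test, with a bar at the median of each role. Castor2 lies highest at 1.35 and Mark3 lowest at -1.73.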

How the data were processed

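PVN punches from 9 mice were sequenced. The authors aligned reads to mm10 with HISAT2 and counted them per gene with featureCounts. The deposited values are raw counts, whole in all 9 columns. Columns were matched to samples through the column names given in the sample descriptions. In HFD the numbers in the column names differ from those in the sample titles, and sample numbers here follow the titles. Rows without a symbol (958 genes, from 0.0785% to 0.0932% of a library) were tested but name no gene here.

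Counts of all 27179 genes were fitted with edgeR 4.0.16 (filterByExpr, TMM, quasi-likelihood, 1 mean per group, 9 samples, Benjamini-Hochberg adjustment over 17344 tested genes), after a test on simulated data. CPM values used TMM-scaled library sizes, and log2 CPM a prior count of 2. Ratios were tested by an exact two-sided permutation test of the F statistic over samples. R 4.3.3, limma 3.58.1, DESeq2 1.42.0, Python 3.11.15 and pandas 2.3.3 were used. Exon lengths and GC content came from GENCODE M21, positions from RefSeq. Counting by strand is not given in the sources used here.

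The 10 members and the lists were chosen with earlier results of these data known. Named genes were the members, up to 4 called genes per pathway role (by 3-way FDR, or the gene of smallest FDR where none was called) and each member's nearest gene by Pearson r. Alternatives were DESeq2, RLE factors, no filter, FDR 0.05, no fold threshold, a replicate block, removal of the exon length or GC trend, and each sample left out. Deviations of same-numbered Control and HFD+Mino samples correlated at 0.135, 0.163 and 0.292, so these numbers were treated as pairs, on the counts alone. By title number, those of HFD did not pair with Control (from -0.133 to -0.006) or with HFD+Mino (from -0.152 to -0.052). Pairing of HFD by the numbers in its column names was not tested. Reads carry no molecular identifiers, and precision was taken from the spread between mice.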

Additional observations from a re-analysis of the deposited data

How the results depend on the processing

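With 3 mice per group, the counts of calls near the FDR threshold moved with nearly every setting. In the order 3-way test, HFD against Control and HFD+Mino against HFD, members called numbered 0, 0 and 2 as reported, 4, 2 and 4 with DESeq2, 4, 0 and 4 without the filter on low counts, 4, 2 and 6 at FDR under 0.05, 1, 0 and 4 with a replicate block in all samples, 4, 3 and 5 with the block in Control and HFD+Mino, 0, 0 and 0 with the exon length trend removed, and 3, 0 and 4 with the GC trend removed. RLE size factors and no fold threshold gave the reported counts. Over the samples left out in turn they ran from 0 to 4, 0 to 2 and 0 to 5. The share of all tested genes called moved too: it was 2.13%, 1.74% and 4.15% as reported, 13.6%, 6.91% and 23.0% with DESeq2, 5.19%, 1.92% and 7.61% without the filter, 13.0%, 5.77% and 27.4% at FDR under 0.05, 2.81%, 1.64% and 7.89% with the block in all samples, 13.2%, 6.22% and 25.6% with the block in Control and HFD+Mino, 2.17%, 2.39% and 2.74% with the length trend removed, and 3.75%, 2.91% and 8.96% with the GC trend removed. Over samples left out it ran from 0.0168% to 13.4%, from 0.335% to 3.08% and from 0.162% to 21.4%. Pathway genes called numbered 4, 5 and 7 as reported, 21, 13 and 27 with DESeq2 (2 in HFD+Mino against Control), 20, 11 and 33 at FDR under 0.05, 22, 11 and 34 with the block in Control and HFD+Mino (3 in HFD+Mino against Control), 13 and 15 without the filter in the first and the last of these tests, 7 and 13 there with the block in all samples, 8, 8 and 13 with the GC trend removed, and 8 in HFD against Control with the length trend removed. Over samples left out they ran from 0 to 20, 1 to 8 and 0 to 26, and from 0 to 9 in HFD+Mino against Control.

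In 2 settings added after seeing the data a lone sample of a group was assumed to vary like the other groups. Leaving out Control samples 1 and 2 gave 2, 0 and 2 pathway genes, and leaving out HFD+Mino samples 1 and 2 gave 0 members in HFD+Mino against HFD and 9 and 4 pathway genes in the last 2 tests.

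The log2 difference of HFD for Rictor to Rptor was -1.17 with the GC trend removed (exact permutation p = 0.0143), and ran from -1.24 to -0.92 over samples left out. Tsc1 to Tsc2 ran from -0.65 to -0.30 and Prkaa1 to Prkaa2 from 0.41 to 0.78. With the exon length trend removed the difference was -1.14 for Rictor to Rptor, -0.60 for Tsc1 to Tsc2 and 1.11 for Prkaa1 to Prkaa2. As counted these were -1.08, -0.47 and 0.64. Prkaa1 to Prkaa2 was 0.63 with Control sample 3 alone in its group and 0.36 with HFD+Mino sample 3 alone (exact permutation p = 0.171 and 0.157). Permuting within the replicate numbers of the titles (a replicate block) gave exact p-values of 0.111, 0.111 and 0.0278. The last, for Prkaa1 to Prkaa2, was the smallest that these arrangements can give. The HFD samples did not pair with the others by these numbers, so this ties them by title number only.

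In the 3-way test, HFD against Control and HFD+Mino against HFD, signs turned for Rictor, Deptor and Rheb, none of them called there. With the length trend removed the log2 distance of HFD was -0.21 for Rictor and -0.25 for Deptor, HFD against Control was -0.49 for Rictor, and HFD+Mino against HFD was 0.14 for Rictor and 0.20 for Deptor. With the GC trend removed Deptor's distance was -0.0219 and Rictor's HFD against Control -0.0460. Deptor's distance ran from -0.14 to 0.28 and was -0.0169 with HFD+Mino sample 3 alone, and over samples left out its HFD against Control ran from -0.49 to 0.13, its HFD+Mino against HFD from -0.73 to 0.0251, and Rictor's HFD against Control from -0.0534 to 0.14. With Control sample 3 alone, HFD against Control was -0.0222 for Rictor and 0.21 for Rheb. In HFD+Mino against Control, where 0 members were called, the sign turned for 7 members. With the length trend removed the value was 0.10 for Mtor, 0.17 for Tsc1 and 0.19 for Prkaa2, with the GC trend removed 0.0173 for Tsc1 and 0.0096 for Prkaa2, and without the filter -0.0024 for Stk11. Over samples left out it ran from -0.30 to 0.18 for Mtor, from -0.42 to 0.24 for Rptor, from -0.28 to 0.28 for Tsc1, from -0.83 to 0.0049 for Tsc2, from -0.24 to 0.12 for Prkaa2 and from -0.25 to 0.43 for Stk11. With HFD+Mino sample 3 alone it was -0.0474 for Rheb and -0.12 for Stk11, and with Control sample 3 alone -0.61 for Stk11. The cause was not tested. Every member had at least 172 counts in every sample, and each group had 3 mice.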
